A study of Mus musculus with 18 samples.

Results

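The genes described here encode the calcineurin, NFAT and MEF2 branch of the cardiac hypertrophy response. They are Rcan1, Ppp3ca, Ppp3cb, Nfatc1, Nfatc2, Nfatc3, Nfatc4, Mef2a, Mef2c and Mef2d, taken by gene symbol, and they make up 10 of the 51435 genes in the deposited tables. The libraries hold poly(A) RNA of the left ventricle, 1 per mouse, from 9 WT mice and 9 homozygous WWP2Mut/Mut littermates. All 18 mice, the WT controls included, had received angiotensin II (AngII), a peptide that raises blood pressure and drives hypertrophy and fibrosis, from an implanted pump at 500 ng/kg/min for 28 days from 8 weeks of age. The mutation is a frame shift made by CRISPR/Cas9 in Wwp2, an E3 ubiquitin ligase, in a C57BL/6J-based line. It lies in an early exon, so that the short C-terminal isoform of Wwp2 is kept, and values per gene do not separate the isoforms. No saline-infused heart is among these samples, so the comparison is between genotypes under AngII and says nothing of the response to AngII itself.

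Calcineurin is a phosphatase that is switched on by calcium and calmodulin, and is built from a catalytic A subunit (Ppp3ca, Ppp3cb) and a regulatory B subunit. It removes phosphates from the cytoplasmic NFAT factors (Nfatc1 to Nfatc4), which then enter the nucleus and work with partners such as GATA4 and the MEF2 factors (Mef2a, Mef2c, Mef2d) on genes of the hypertrophic heart. Rcan1 encodes a protein that binds and restrains calcineurin. Its shorter form is read from an internal promoter that NFAT itself activates, so that Rcan1 mRNA is widely used as a readout of calcineurin activity in heart muscle. The values per gene used here do not separate that form from the others. NFAT, calcineurin and MEF2 are controlled largely by phosphorylation and by movement into the nucleus, which mRNA levels do not measure.

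The 2 starts that the RefSeq table lists for Rcan1 are shown because that gene carries the largest difference between genotypes among the 10. Of the listed Mef2c starts, the first is shown because its window holds the most NFAT core letters. Each line gives the 250 bases before a RefSeq transcript start on GRCm38.p6, read 5′ to 3′ on the gene's strand. Capitals mark GGAAA, the core of the NFAT site, or its reverse complement TTTCC.
Rcan1, internal start, chr16:92400079-92400328, minus strand: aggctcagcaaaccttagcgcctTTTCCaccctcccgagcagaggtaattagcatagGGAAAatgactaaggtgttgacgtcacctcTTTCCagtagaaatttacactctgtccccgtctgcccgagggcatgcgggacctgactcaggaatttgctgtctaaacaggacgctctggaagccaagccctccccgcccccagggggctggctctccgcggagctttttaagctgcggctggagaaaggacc
Rcan1, upstream start, chr16:92466170-92466419, minus strand: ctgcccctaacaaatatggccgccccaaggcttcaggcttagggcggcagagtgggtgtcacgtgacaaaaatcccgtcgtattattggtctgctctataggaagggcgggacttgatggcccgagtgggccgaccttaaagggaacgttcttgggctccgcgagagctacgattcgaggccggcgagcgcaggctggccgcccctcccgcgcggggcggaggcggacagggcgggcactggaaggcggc
Mef2c, first start, chr13:83503784-83504033, plus strand: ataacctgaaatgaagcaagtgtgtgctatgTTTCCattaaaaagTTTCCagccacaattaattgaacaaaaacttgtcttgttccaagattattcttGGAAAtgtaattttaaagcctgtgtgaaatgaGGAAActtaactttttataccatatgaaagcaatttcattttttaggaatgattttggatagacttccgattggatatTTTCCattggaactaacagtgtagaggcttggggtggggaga
Rcan1 spans bases 92391953 to 92470867 of chromosome 16 (GENCODE M21, GRCm38), so both of its windows lie within the gene, and 0 annotated exons overlap either one. The internal window holds 3 copies of the core, whose first letters lie at -227, -193 and -163 relative to the start, and 2 of them extend to the longer form TGGAAA on the strand that spells GGAAA. The upstream window holds 0. Rcan1 has 7 annotated transcripts and extends beyond the upstream window, so these windows need not cover every start. Mef2c lies on the plus strand of chromosome 13 from 83504034 to 83667080, and the window shown ends at the base before the gene and holds 5 copies. The other Mef2c windows in hand, at 83523406-83523655 and 83573357-83573606, hold 0.

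Such letters are common. Of 32851 promoter windows of that length in RefSeq, 55.6% held at least 1 copy of GGAAA on either strand, 6.39% held 3 or more and 0.390% held 5 or more. The longer form TGGAAA was in 18.6% of these windows, with 2 or more copies in 2.28%. Windows were in hand for 8 of the 10 genes (13 windows), since the table has none for Ppp3ca and Nfatc1, and 8 of the 13 held the core. The longer form was in 4 of the 13. A window each of Nfatc2, Nfatc4 and Ppp3cb also held 3 copies of the core. The frame of the MEF2 site, searched as CTA, any 4 letters and TAG, was in 0 of the 13 windows and in 3.20% of all windows. A match is a description of letters and not a site in use, and a window without a match says only that these letters are not in it.

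The expected counts summed to between 24566994 and 37451087 per mouse (median 31168997). Wwp2 itself was 5.09 ± 0.600 TPM (SD, n = 9) in WT and 1.72 ± 0.528 TPM (SD, n = 9) in WWP2Mut/Mut mice (log2 fold change -1.40, adjusted p = 0.00113, edgeR), and was the 1 gene of 24804 that passed an adjusted p of 0.05 (0.00403%). All 9 cardiomyocyte markers examined were expressed, with a summed level between 44391 and 59031 TPM. RNA concentration averaged 110 ng/µl in WT and 175 ng/µl in WWP2Mut/Mut mice (two-sided exact permutation test, p = 0.0422). The WT value includes an entry of 1.68 ng/µl for mouse 43-3, which may be an entry error, since every other entry was 88.6 or more, and which was kept as a covariate value. Without that mouse the WT mean was 124 ng/µl and the exact p was 0.0872. Summed liver markers such as albumin mRNA ran from 4.40 to 308 TPM in WT and from 4.70 to 55.7 TPM in WWP2Mut/Mut mice. At an unadjusted p below 0.05 (edgeR), 7 of these 7 markers were lower in the mutants, beside 2.57% of all genes tested. In whole ventricle, fewer cells of a type and less RNA per cell cannot be told apart.

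Among the 10 genes, Rcan1 had the largest fitted difference between genotypes. In the 9 WT mice its level ran from 22.2 to 151 TPM with a median of 55.6, and in the 9 WWP2Mut/Mut mice from 23.5 to 46.9 TPM with a median of 36.9. The groups overlapped, but on this TPM scale 7 of 9 WT mice were above every WWP2Mut/Mut mouse, and all 9 WWP2Mut/Mut mice were below the WT median. Fewer WT mice were above every mutant on log2 CPM (counts scaled to library size, TMM normalization). There KO 53-1 at 7.32 was above WT 39-1 at 7.09 and WT 45-1 at 7.08. The mean level was 70.2 ± 39.9 TPM (SD, n = 9) in WT and 37.03 ± 8.18 TPM (SD, n = 9) in WWP2Mut/Mut mice, a ratio of 0.528 (two-sided exact permutation test of the mean TPM, p = 0.0142). The same test gave an unadjusted p below 0.05 for 1 of the 10 genes and for 4.43% of the 24804 genes tested. The WT mice covered the whole range, since they also included the single lowest mouse, WT 16-1. The 2 highest mice were WT 43-3 at 151 TPM and WT 84-2 at 106.5 TPM. Without WT 43-3, the mouse with the low RNA entry, the exact p was 0.0246. Over the 18 tests that each left out 1 mouse it ran from 0.000864 (without WT 16-1) to 0.0323 (without KO 52-1).

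With RNA concentration and lane as covariates, the log2 fold change of Rcan1 was -0.52 (SE 0.217), or 0.696 of the WT level, with an unadjusted p of 0.0269 and an adjusted p of 1 (edgeR, adjusted over all genes by the Benjamini-Hochberg method). It therefore did not pass the test over all genes, and DESeq2 did not call it either (unadjusted p = 0.0208, adjusted p = 1.00). An unadjusted p below 0.05 was reached by 3.66% of all genes tested, and by 2.57% of all genes with the lower value in WWP2Mut/Mut mice. The value without covariates was -0.70 (SE 0.210, unadjusted p = 0.00295), and with gene body coverage added it was -0.37 (SE 0.165, unadjusted p = 0.0354), the smallest difference among the alternatives. With the liver markers added it was -0.71 (SE 0.261, unadjusted p = 0.0146), and without WT 43-3 it was -0.51 (SE 0.206, unadjusted p = 0.0240). The unadjusted p was below 0.05 in 23 of 32 alternatives. It was 0.0524 to 0.0784 with limma on the 3 TPM scales, 0.0643 without WT 25-3, 0.0540 without WT 67-1, 0.0558 without WT 84-2, 0.0546 without KO 8-2, 0.0714 without KO 24-3 and 0.0584 without KO 52-1.

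Rcan1 was read at 1860 to 12473 counts per mouse, so counting error was small beside the differences between mice. Both genotypes were in each of the 4 sequencing lanes, and the mean TPM was lower in WWP2Mut/Mut mice in 4 of 4. The gap was uneven. In lane 3 the 2 WT mice averaged 129 TPM and the 2 WWP2Mut/Mut mice 33.1 TPM, while in lane 2 the means were 52.02 TPM (2 WT mice) and 43.4 TPM (3 WWP2Mut/Mut mice). In lane 1 they were 38.01 and 30.02 TPM, and in lane 4 they were 64.7 and 38.5 TPM, WT first. On log2 CPM the highest mouse of lane 2 was a mutant, KO 53-1 at 7.32, beside 7.09 and 7.08 in the WT mice.

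**Figure D1:**
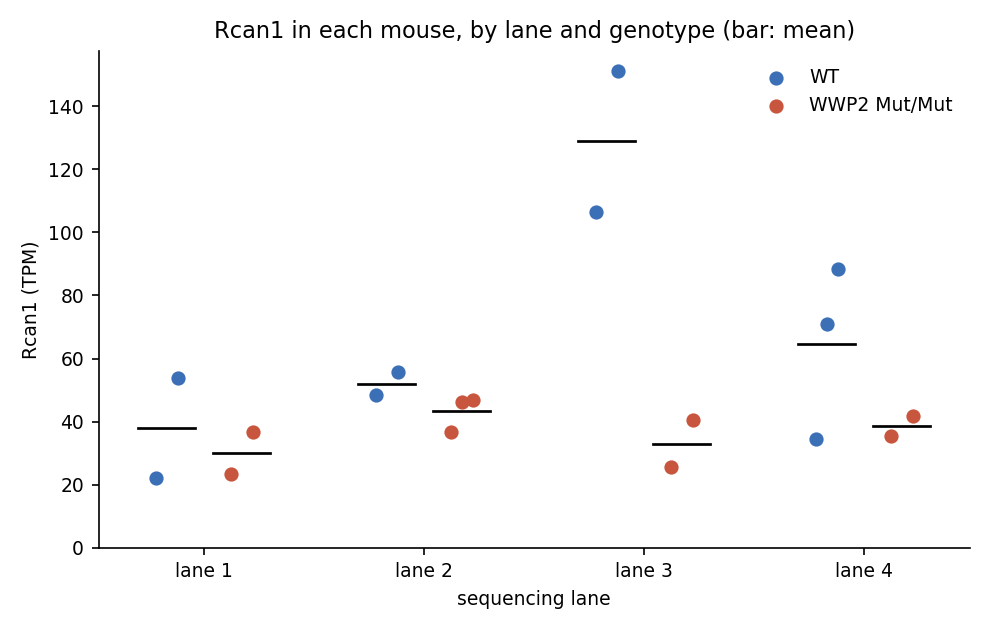
Rcan1 level (TPM, linear axis from 0) of each mouse by sequencing lane, with WT in blue, WWP2Mut/Mut in red and a bar at each mean. The WWP2Mut/Mut mean is below the WT mean in 4 of 4 lanes, with the widest gap in lane 3 (129 against 33.1 TPM).

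Other measures of the tissue moved with Rcan1. Over the 18 mice, its level correlated with the summed macrophage markers at r = 0.67 and with the summed fibroblast markers at r = 0.59, the highest of 11 marker lists, followed by smooth muscle and pericytes at 0.43 and cardiomyocytes at 0.37, with endothelial cells at -0.20 and liver at -0.25. These are descriptions of the same libraries, and the lists shown were picked by these values. The sums ran from 173 to 323 TPM in WT and from 170 to 278 TPM in WWP2Mut/Mut mice for the 6 macrophage markers, and from 200 to 561 TPM in WT and from 238 to 444 TPM in WWP2Mut/Mut mice for the 8 fibroblast markers. The defining markers of both lists were expressed in these hearts (0 of 6 and 0 of 8 stayed under 1 TPM in all mice), and WT 43-3, the mouse with the highest Rcan1, also had the highest sum of each, as it had for the cardiomyocyte markers. Between genotypes, 7 of the 8 fibroblast markers and 4 of the 6 macrophage markers had a lower fitted value in WWP2Mut/Mut mice, beside 51.9% of all genes tested. Of these markers, 0 had an unadjusted p below 0.05 in either list. Their part in the Rcan1 difference was not tested.

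The catalytic calcineurin subunits did not differ between genotypes beyond their spread. Ppp3ca was at 6.32 to 12.7 TPM (median 10) in WT and 6.43 to 13.4 TPM (median 8.12) in WWP2Mut/Mut mice. The groups overlapped, with 2 mutants above every WT mouse and 1 WT mouse below every mutant, and the log2 fold change was 0.06 with an interval of 2 SE each side from -0.11 to 0.23 (edgeR, unadjusted p = 0.489). Ppp3cb was at 9.60 to 18.97 TPM (median 14.2) in WT and 9.13 to 16.1 TPM (median 11.3) in WWP2Mut/Mut mice. Its log2 fold change was -0.07, with an interval from -0.32 to 0.19 (edgeR, unadjusted p = 0.603). Summed with Ppp3cc, the catalytic subunit best known from testis, the A subunits reached 34.1 ± 8.24 TPM (SD, n = 9) in WT and 31.7 ± 7.69 TPM (SD, n = 9) in WWP2Mut/Mut mice. Ppp3cb supplied 39.6% of that sum on average over the 18 mice, Ppp3cc 32.3% and Ppp3ca 28.1%.

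The NFAT genes were the lowest of the 10, with Nfatc1, Nfatc2 and Nfatc3 close together and Nfatc4 below them. Nfatc1, the member best known from heart valve development, was at 2.10 to 3.91 TPM (median 3.23) in WT and 1.89 to 3.76 TPM (median 2.45) in WWP2Mut/Mut mice. The groups overlapped, with 3 WT mice above every mutant and 1 mutant below every WT mouse, and the log2 fold change was -0.13 (interval -0.33 to 0.07, edgeR, unadjusted p = 0.213). It was -0.07 without KO 53-1, -0.05 with lane alone as covariate and -0.29 with limma on log2(TPM + 0.1). Nfatc2 was at 2.21 to 4.57 TPM (median 2.96) in WT and 1.97 to 3.62 TPM (median 2.77) in WWP2Mut/Mut mice. It was lower in WWP2Mut/Mut mice in 4 of 4 lanes and 8 of 9 mutants were below the WT median, yet neither test passed its threshold (two-sided exact permutation test of the mean TPM, p = 0.0991, and log2 fold change -0.21, interval -0.58 to 0.17, edgeR unadjusted p = 0.285). Single mice moved this result, since the exact permutation p was 0.0407 without WT 39-1 and 0.0260 without KO 62-1. The log2 fold change was -0.35 without KO 52-1 and -0.13 without WT 94-2. With gene body coverage as a further covariate its log2 fold change was -0.31 with an unadjusted p of 0.0405.

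Nfatc3, one of the isoforms through which calcineurin acts in heart muscle, was at 1.67 to 3.88 TPM in WT and 1.77 to 3.88 TPM in WWP2Mut/Mut mice, with medians of 2.41 and 2.05 TPM. Nfatc4, the other NFAT isoform long tied to cardiac hypertrophy, was the lowest of the 10 genes, at 0.860 to 2.06 TPM (median 1.11) in WT and 0.660 to 1.54 TPM (median 0.940) in WWP2Mut/Mut mice. Both pairs of groups overlapped. The log2 fold changes were 0.01 (interval -0.29 to 0.30) and -0.00249 (interval -0.40 to 0.40), and the sign of each turned under some alternatives. Nfatc4 rested on 122 to 314 counts per mouse.

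The MEF2 genes also overlapped between genotypes. Mef2d, whose loss blunts pathological remodeling in mice, was at 14.9 to 39.4 TPM (median 22.8) in WT and 13.6 to 35.1 TPM (median 18.2) in WWP2Mut/Mut mice (log2 fold change -0.09, interval -0.36 to 0.19, edgeR, unadjusted p = 0.538). Mef2a, the MEF2 factor most active in the adult mouse heart, was at 8.17 to 25.1 TPM (median 16.1) in WT and 8.13 to 20.1 TPM (median 11.4) in WWP2Mut/Mut mice. Its log2 fold change was -0.05 (interval -0.37 to 0.27, edgeR, unadjusted p = 0.740). Mef2c, which is required to form the right ventricle and outflow tract in the embryo, was at 4.10 to 12.7 TPM (median 5.58) in WT and 4.07 to 9.09 TPM (median 5.39) in WWP2Mut/Mut mice (log2 fold change -0.03, interval -0.23 to 0.17, edgeR, unadjusted p = 0.763). Mef2a overlaps Lysmd4 on the opposite strand, which was listed at 4.62 TPM on average. The library kit keeps strand, but whether counting used it is not given in the sources used here.

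Of the 10 genes, 0 passed an adjusted p of 0.05 by edgeR or by DESeq2, and with each tool a single gene, Rcan1, had an unadjusted p below 0.05. A lower value in WWP2Mut/Mut mice was fitted for 8 of the 10, beside 51.9% of all genes tested, and the median log2 fold change of the 10 was -0.06, beside -0.01 over all genes. The count moved with the setting. It was 6 with gene body coverage added, and 7 with no covariates, with lane alone or with atrial markers added. All 10 were lower when counts were scaled by library totals, which moved the median of all genes to -0.09, and in the limma fits of TPM, where log2(TPM + 0.1) moved it to -0.11. The median of the 10 was -0.14 with library totals, beside -0.09 over all genes. It was -0.23, -0.26 and -0.24 with limma on log2(TPM + 1), log2(TPM + 0.1) and rescaled TPM, beside -0.04, -0.11 and -0.05.

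**Figure D2:**
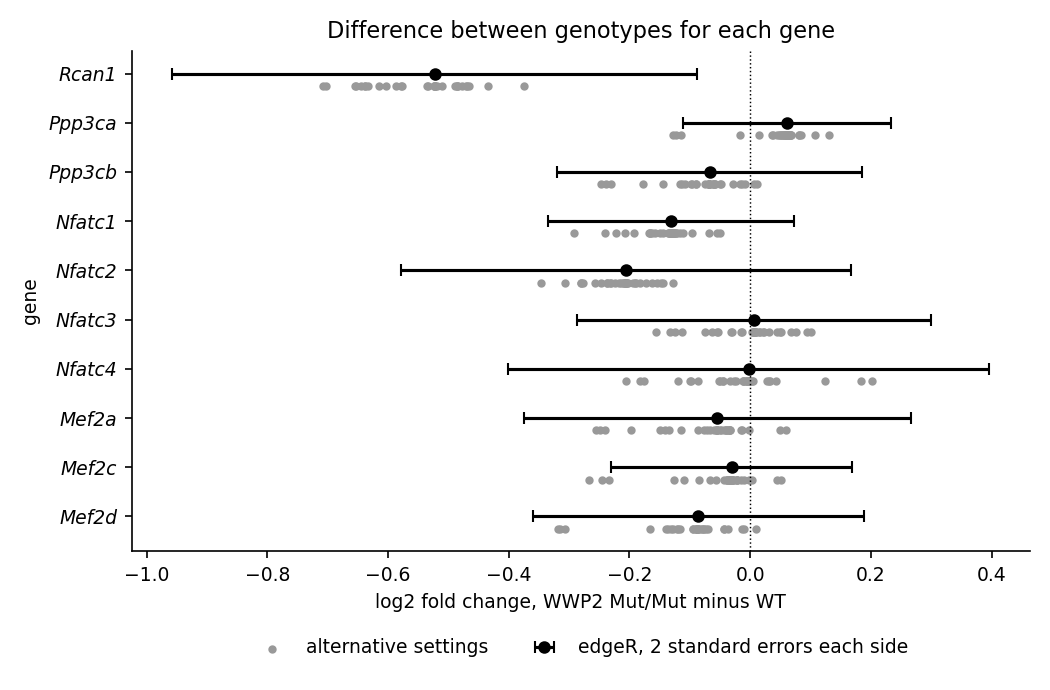
Log2 fold change of each gene, WWP2Mut/Mut minus WT, from edgeR (black points, bars 2 SE each side) with the values under the alternative settings as grey points. The bar of Rcan1 (-0.96 to -0.09) is the 1 bar of 10 that does not cross 0, and this unadjusted interval carries no correction for the number of genes.

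On the TPM scale, which divides by transcript length and so allows genes to be compared, Rcan1 was the most abundant of the 10 at a mean of 53.6 TPM over the 18 mice. It was followed by Mef2d at 23.9 TPM, Mef2a at 14.7 TPM, Ppp3cb at 13.1 TPM, Ppp3ca at 9.24 TPM and Mef2c at 6.44 TPM. The NFAT genes came last, with means of 2.94 TPM for Nfatc1, 2.86 TPM for Nfatc2, 2.57 TPM for Nfatc3 and 1.13 TPM for Nfatc4. In 6 of the 9 steps of this order the higher gene was above the next in 18 of 18 mice. Mef2a was above Ppp3cb in 14 of 18 mice, Nfatc1 above Nfatc2 in 10 of 18 and Nfatc2 above Nfatc3 in 11 of 18, so the order of these neighbours differed between mice.

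The share of each gene in its family's summed TPM is given by genotype, as means with no test. Of the calcineurin A sum, Ppp3ca supplied 27.2% ± 1.01 in WT and 29.0% ± 2.80 in WWP2Mut/Mut mice (SD, n = 9 each), and Ppp3cb 40.4% ± 1.60 and 38.9% ± 2.12. Of the summed NFAT level, Nfatc1 supplied 31.04% ± 3.21 in WT and 30.7% ± 2.48 in WWP2Mut/Mut mice (SD, n = 9 each), Nfatc2 31.1% ± 6.68 and 29.6% ± 4.38, Nfatc3 25.9% ± 4.95 and 27.8% ± 4.87, and Nfatc4 12.0% ± 2.26 and 11.9% ± 3.15. Of the summed MEF2 level, Mef2d supplied 53.2% ± 3.50 and 52.3% ± 3.70, Mef2a 32.3% ± 3.38 and 32.98% ± 3.47, and Mef2c 14.3% ± 2.18 and 14.5% ± 1.68, with WT first. Mef2b, the MEF2 gene best known from B cells, was at 0.0856 TPM on average.

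**Figure D3:**
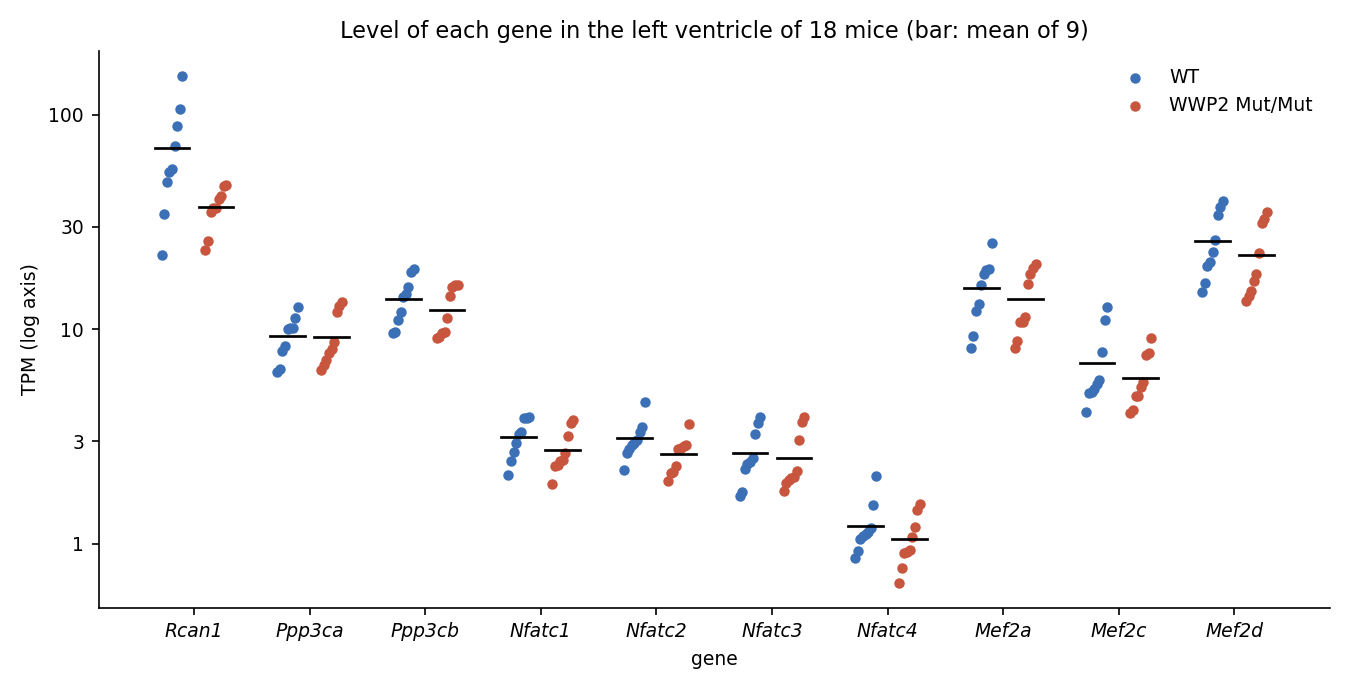
TPM of each gene in each of the 18 mice on a log axis, WT in blue and WWP2Mut/Mut in red, with a bar at the mean of 9 mice. Rcan1 stands highest (mean 53.6 TPM) and shows the widest gap between genotypes, and Nfatc4 stands lowest (mean 1.13 TPM).

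The genes around these 10 were read in 4 lists of pathway members, and 0 genes of any list passed an adjusted p of 0.05 by edgeR or DESeq2. Among 18 tested calcineurin subunits and modulators, 8 were lower in WWP2Mut/Mut mice (51.9% of all genes tested were), the median log2 fold change was 0.01 and 0 had an unadjusted p below 0.05. The smallest p values there belonged to Lmcd1, a LIM protein that promotes calcineurin signaling in heart (log2 fold change -0.11, SE 0.0949, edgeR, unadjusted p = 0.256), Fkbp1a, the receptor of the calcineurin inhibitor tacrolimus (0.11, SE 0.0983), and Chp2, a calcineurin B homologue (-0.19, SE 0.271). The related Rcan2, another calcineurin inhibitor, had a log2 fold change of 0.04 (SE 0.196), at 88.5 TPM in WT and 83.3 TPM in WWP2Mut/Mut mice. Ppp3r2, the calcineurin regulatory subunit of testis, was at 0 TPM in every WT mouse and at most 0.02 TPM in a mutant, so its place among the genes that were not lower carries no information. Rcan2 and Ppp3r2 were singled out after their values were seen.

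Among 15 NFAT kinases, partners and calcium entry genes, 14 had a lower fitted value in WWP2Mut/Mut mice beside 51.9% of all genes tested, and the median log2 fold change was -0.12, beside -0.01 over all genes, yet 0 had an unadjusted p below 0.05. Among the smallest p values were those of Stim1, the calcium sensor of the endoplasmic reticulum (-0.15, SE 0.0944, edgeR, unadjusted p = 0.119), and Nfat5, the NFAT relative that calcineurin does not control (-0.25, SE 0.176). Among 16 MEF2 partners, class IIa histone deacetylases and their kinases, 8 were lower, the median was 0.00308 and 0 had an unadjusted p below 0.05. The leading genes were the kinases Prkd2 (0.17, SE 0.124, edgeR, unadjusted p = 0.188), Mapk7 (-0.21, SE 0.174) and Camk2a (0.15, SE 0.147).

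The 10 hypertrophy and MEF2 output genes had the lowest median of the lists at -0.33, with 7 of 10 lower in WWP2Mut/Mut mice, beside 51.9% of all genes. An unadjusted p below 0.05 was found for 1 of them by edgeR (3.66% of all genes) and for 2 by DESeq2 (2.41% of all genes). Xirp1, which encodes an actin-binding protein of the intercalated disc and is a MEF2 target, was at 20.4 to 63.1 TPM (median 33.3) in WT and 14.3 to 31.6 TPM (median 18.8) in WWP2Mut/Mut mice. The groups overlapped, and its log2 fold change was -0.46 (SE 0.161, edgeR, unadjusted p = 0.0100, adjusted p = 0.973). Over the alternatives this value ran from -0.73 with the liver markers added (edgeR, unadjusted p = 0.000429, adjusted p = 0.752) to -0.39 without KO 52-1 (edgeR, unadjusted p = 0.0281). Its relative Xirp2, a MEF2A target induced by AngII, had a log2 fold change of -0.35 (SE 0.178, unadjusted p = 0.0637). Nppb, the natriuretic peptide gene that marks stressed ventricle, was at 235 to 1280.5 TPM (median 835) in WT and 140 to 651 TPM (median 327) in WWP2Mut/Mut mice (log2 fold change -0.66, SE 0.336, unadjusted p = 0.0639). None of these passed the adjusted threshold.

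The 10 genes were next compared with each other across mice, as log2 CPM (counts scaled to library size) after TMM normalization. Of their 45 pairs, 5 had an adjusted p below 0.05 for Pearson's r (permutation test, 100000 resamples, adjusted over the 45 pairs), and all 5 were positive on this scale. The number depended on the scale, with 29 pairs on log2(TPM + 1), 24 with library totals in place of TMM, 19 on residuals after genotype, lane and RNA concentration, 7 with gene body coverage removed too, and 9 without mouse KO 53-1. The counts on residuals tend to be too high, since the permutation took no account of the terms already fitted. The median r of the 45 pairs was 0.25, beside 0.001 over all pairs of the 11336 genes with a mean of at least 1 TPM. The closest pair was Ppp3cb with Mef2a, with r = 0.85 (permutation p = 1e-05, the smallest that 100000 resamples can give, adjusted p = 0.000450) and Spearman's rho = 0.84 (permutation p = 4e-05, adjusted p = 0.000900). It was 0.72 within WT and 0.95 within WWP2Mut/Mut mice. Nfatc1 with Mef2d had r = 0.81 (permutation p = 4e-05, adjusted p = 0.000900) and rho = 0.86 (permutation p = 2e-05, adjusted p = 0.000900), with 0.81 within WT and 0.83 within WWP2Mut/Mut mice.

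The other pairs were weaker. Ppp3cb with Nfatc3 had r = 0.76 (permutation p = 0.000210, adjusted p = 0.00315) and rho = 0.69 (permutation p = 0.00194, adjusted p = 0.0175). Nfatc2 with Nfatc4 had r = 0.67 (permutation p = 0.00235, adjusted p = 0.0229) and rho = 0.81 (permutation p = 9e-05, adjusted p = 0.00135). Nfatc3 with Mef2a had r = 0.67 (permutation p = 0.00255, adjusted p = 0.0229), but its rho of 0.58 (permutation p = 0.0128) did not pass after adjustment (adjusted p = 0.0621). Without the 2 mice farthest from the median of the first gene, r was 0.85, 0.80, 0.65, 0.75 and 0.52 for these pairs in the order given. Rcan1 took part in 0 of these 5. Lanes hold too few mice for a correlation within each. On residuals after genotype, lane and RNA concentration, r was 0.85, 0.83, 0.83, 0.67 and 0.82 for these pairs in the same order. Of the 19 pairs that passed on residuals, 15 were positive and 3 included Rcan1, which had r = 0.67 with Nfatc3, 0.56 with Mef2a and -0.56 with Nfatc2. The permutation ignored the terms already fitted, so its p values on residuals tend to be too small. The highest r on residuals was 0.86, for Ppp3ca with Nfatc3.

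These correlations moved with gene body coverage. The table of samples gives a gene body coverage for each mouse, a fraction between 0.0288 and 0.0540 whose exact definition it does not state. When this coverage was removed along with genotype, lane and RNA concentration, r was 0.00285 for Ppp3cb with Mef2a, 0.27 for Ppp3cb with Nfatc3 and 0.13 for Nfatc3 with Mef2a. It was 0.76 for Nfatc1 with Mef2d and 0.51 for Nfatc2 with Nfatc4. Other pairs had a higher r than on log2 CPM, among them Nfatc1 with Nfatc4 (0.11 to 0.68), Nfatc2 with Mef2d (0.15 to 0.69) and Nfatc4 with Mef2d (0.26 to 0.68), and the highest was 0.80 for Ppp3ca with Nfatc3. The scale mattered as well, since on log2(TPM + 1) 44 of the 45 pairs were positive with a median r of 0.71, beside 0.296 over all pairs of the 11336 genes on that scale, and on log2 CPM 33 of 45 were positive.

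**Figure D4:**
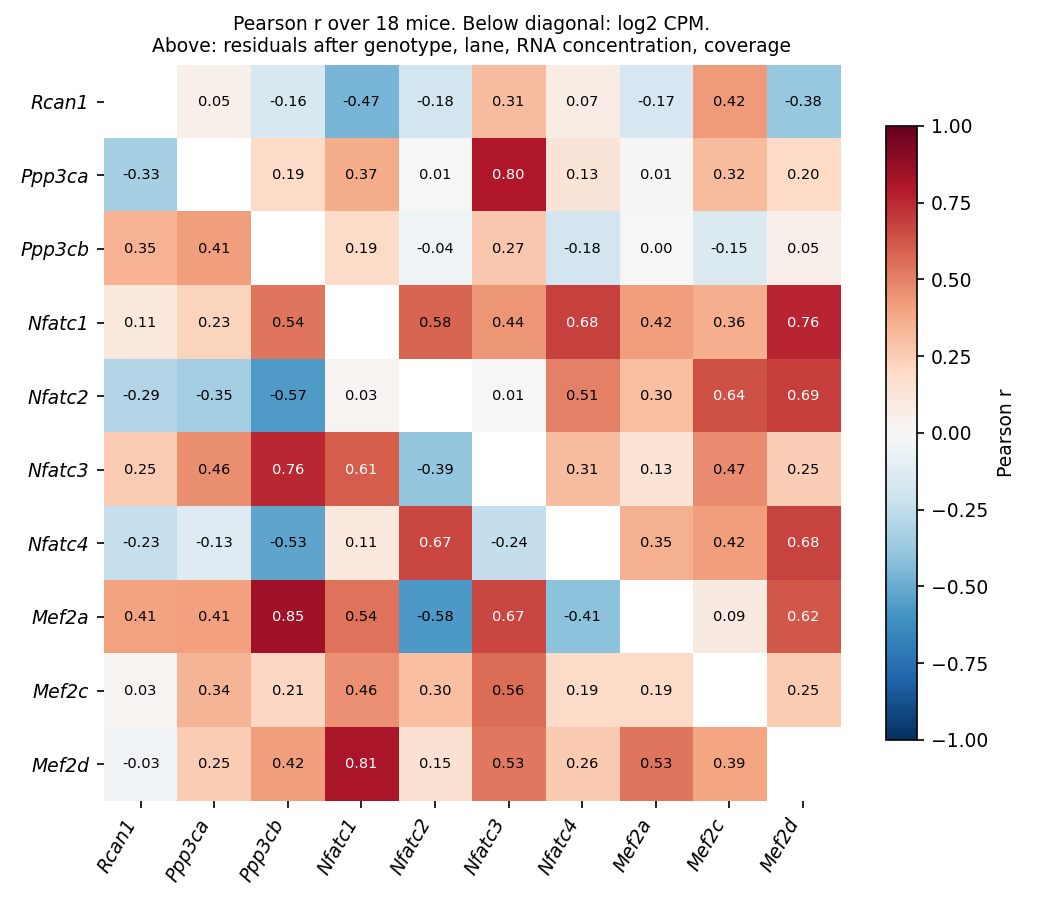
Pearson r between the 10 genes over 18 mice, with log2 CPM below the diagonal and residuals after genotype, lane, RNA concentration and gene body coverage above it (red positive, blue negative). Ppp3cb with Mef2a goes from 0.85 below to 0.00285 above, Nfatc1 with Mef2d from 0.81 to 0.76, and Nfatc1 with Nfatc4 from 0.11 to 0.68.

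Single genes were also correlated with coverage, as were many genes outside the 10. Over 40 relations of the 10 genes with RNA concentration, the A260/230 ratio, coverage and the deposited TPM total, coverage passed an adjusted p of 0.05 for 6 genes. Mef2a had r = -0.83 (permutation p = 7e-05, adjusted p = 0.000933) and rho = -0.82 (permutation p = 9e-05, adjusted p = 0.000900) with coverage, and Ppp3cb had r = -0.81 (permutation p = 0.000130, adjusted p = 0.00130) and rho = -0.83 (permutation p = 3e-05, adjusted p = 0.000900). Nfatc2 went the other way, with r = 0.58 (permutation p = 0.0112, adjusted p = 0.0373) and rho = 0.52 (permutation p = 0.0291, adjusted p = 0.0894). Of all genes with a mean of at least 1 TPM, 18.2% had an absolute r with coverage as large as that of Mef2a, 21.4% as that of Ppp3cb and 53.2% as that of Nfatc2. The median absolute r with coverage was 0.580 over the 10 genes and 0.606 over all these genes. The deposited TPM total also passed for 6 genes, among them Mef2a (r = -0.85, permutation p = 2e-05, adjusted p = 0.000800, and rho = -0.86, permutation p = 5e-05, adjusted p = 0.000900), with a median absolute r of 0.639 over the 10 genes and 0.554 over all. The A260/230 ratio passed for Nfatc1 (r = 0.68, permutation p = 0.00210, adjusted p = 0.00951, and rho = 0.60, permutation p = 0.00947, adjusted p = 0.0421), where r was 0.42 without the 2 mice farthest from its median, and RNA concentration passed for 0. Coverage did not differ between genotypes beyond its spread (mean 0.0387 in WT and 0.0401 in WWP2Mut/Mut mice, two-sided exact permutation test, p = 0.720).

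Rcan1 had r = -0.60 with coverage (permutation p = 0.00934, adjusted p = 0.0373) and rho = -0.54 (permutation p = 0.0216, adjusted p = 0.0826). Within WT mice r was -0.88 and within WWP2Mut/Mut mice it was -0.25, and the difference between these values was not tested. Without the 2 mice farthest from the median coverage, r over the remaining mice was -0.43. With RNA concentration, Rcan1 had r = -0.45 (permutation p = 0.0632, adjusted p = 0.141) and rho = -0.36 (permutation p = 0.141, adjusted p = 0.268), with -0.47 within WT and -0.04 within WWP2Mut/Mut mice. Without the 2 mice farthest from the median concentration r was -0.29, and without WT 43-3 it was -0.23.

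**Figure D5:**
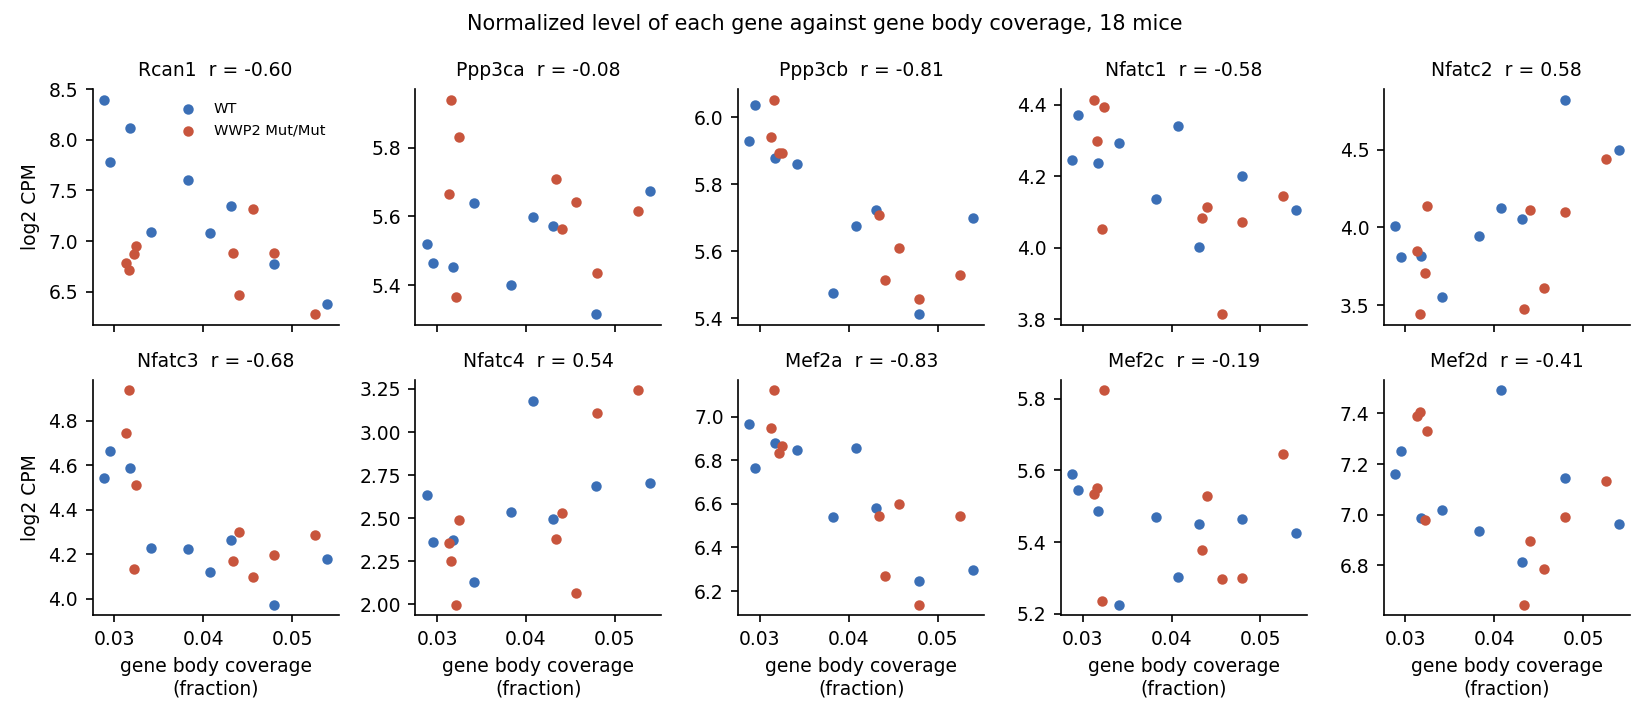
Log2 CPM of each gene (own vertical scale in each panel) against the gene body coverage of the mouse, WT in blue and WWP2Mut/Mut in red, with Pearson r over 18 mice above each panel. Mef2a and Ppp3cb slope down (r = -0.83 and -0.81), Nfatc2 and Nfatc4 slope up (r = 0.58 and 0.54), and Ppp3ca shows r = -0.08.

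For each gene, the 3 genes of at least 1 TPM with the most similar profile over the 18 mice were found by Pearson r of log2 CPM. For Rcan1 these were Ckap4, a membrane protein of the endoplasmic reticulum (r = 0.90), Wdr1, a cofactor of actin filament disassembly (0.88), and Trim16, a tripartite motif protein (0.87). Their own log2 fold changes between genotypes were -0.18, -0.17 and -0.35 (SE 0.163, 0.140 and 0.128). For the calcineurin subunits they were Foxo1, Upf2 and Ubqln2 with Ppp3ca (0.83, 0.78 and 0.77) and Zfp148, Atp13a3 and Bmi1 with Ppp3cb (0.97, 0.96 and 0.96).

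Among the NFAT genes, Nfatc1 was closest to Sipa1l3, Tnrc18 and Spen (0.92, 0.91 and 0.89), Nfatc2 to Xndc1, Tjap1 and Chd9 (0.91, 0.89 and 0.89), Nfatc3 to Trip12, Bptf and Nup160 (0.94, 0.93 and 0.93) and Nfatc4 to Tbc1d8, Meg3 and Elac1 (0.92, 0.91 and 0.90). Among the MEF2 genes, Mef2a was closest to Ctcf, Cnksr3 and Fgd4 (0.94, 0.94 and 0.94), Mef2c to Synm, Spata13 and Bahcc1 (0.87, 0.82 and 0.82) and Mef2d to Tns1, Mark2 and Usp19 (0.96, 0.93 and 0.92). These values describe 18 libraries that share the differences in coverage given above, and 0 of the nearest genes belonged to the 10.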

How the data were processed

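RNA from the left ventricle of 9 WT and 9 WWP2Mut/Mut mice was sequenced by the authors, who aligned reads with STAR 2.5.2b and quantified Ensembl genes with RSEM 1.2.31, removing mitochondrial and rRNA genes. They deposited an expected count per gene and mouse, of which 5.11% were not exactly whole as deposited, with no tolerance, and the TPM of the same genes, whose total per mouse (671770 to 826381) was below its nominal sum. The deposited table of samples gives lane, RNA concentration, absorbance ratios and gene body coverage as a fraction. The labels gave the genotype of each mouse. The methods of the study and the labels give 9 mice per genotype where its results text gives fewer, and all 18 were used. Within genotypes, none of the 72 pairs of mice agreed within sampling noise (chi-square per gene 14.0 to 251). Of the absorbance ratios, the one with an entry of 214 was not used.

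Expected counts were rounded and tested with edgeR 4.0.16 (TMM, glmQLFit, glmQLFTest) under R 4.3.3, over the 24804 genes whose counts summed to more than 1. Lane and centred RNA concentration entered as covariates, as the study did, and with Benjamini-Hochberg adjustment over all of them. Intervals are 2 SE each side. Alternatives were DESeq2 1.42.0, limma 3.58.1 on log2(TPM + 1), log2(TPM + 0.1) and rescaled TPM, other size factors, filters and covariates, and each mouse left out. Fold changes on log2(TPM + 1) understate changes of low genes. Single values were compared by two-sided exact permutation over all 48620 divisions of the mice, whose smallest p is 4.11e-05. Correlations used Python 3.11.15, numpy 2.4.6, scipy 1.17.1 and pandas 2.3.3. The scripts were tested on simulated data.

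The genes and lists were chosen with earlier results of these data known. Named genes are the 10, Wwp2, the 3 with the smallest p of each pathway list and the 3 nearest to each gene. Of these, 1 gene is not reported here. Rcan2, Ppp3r2, Ppp3cc, Mef2b and Lysmd4 fall outside this rule and were chosen after their values were seen. The marker lists for endothelial cells, smooth muscle and pericytes, lymphocytes, erythrocytes, atrium, skeletal muscle and adipocytes had 0 genes with an adjusted p below 0.05, as had those for cardiomyocytes, fibroblasts, macrophages and liver. An unadjusted p below 0.05, reached by 3.66% of all genes tested, was found for 7 liver genes and for 1 gene each of the endothelial, smooth muscle and adipocyte lists, and for 0 of the others. Their summed levels gave two-sided exact permutation p values from 0.0523 (liver) to 0.993 (endothelial). Sequences and motif counts came from RefSeq promoters of GRCm38.p6, and gene positions from GENCODE M21.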

Additional observations from a re-analysis of the deposited data

How the results depend on the processing

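Over the alternatives run (14 other settings and 18 fits that each left out 1 mouse), 0 of the 10 genes and 0 pathway genes passed an adjusted p of 0.05. The number of genes called over the whole table was 0 with liver markers added as a covariate (1198 genes then had an unadjusted p below 0.05, and Wwp2 had a log2 fold change of -1.28 with an adjusted p of 0.0534 by edgeR), 2 with limma on log2(TPM + 1), and 1 to 2 with 1 mouse left out (2 without WT 84-2 and 2 without KO 1-2). Rcan1 stayed lower in WWP2Mut/Mut mice in all 32 (log2 fold change -0.71 to -0.37, unadjusted p 0.00295 to 0.0784), as did Nfatc1 (-0.29 to -0.05) and Nfatc2 (-0.35 to -0.13). Its unadjusted p was below 0.05 in 23 of 32. With 1 mouse left out it ran from -0.64 to -0.43.

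The other genes changed sign somewhere. Ppp3ca was -0.0172 with library totals and -0.11, -0.13 and -0.12 with limma on log2(TPM + 1), log2(TPM + 0.1) and rescaled TPM, where Nfatc3 was -0.0743, -0.11, -0.16 and -0.12. With gene body coverage added, Ppp3cb was 0.0120 and Mef2a 0.0489. Without covariates Mef2c was 0.0444, and with lane alone 0.0516. With liver markers added Nfatc3 was -0.13 and Nfatc4 0.20, and with atrial markers Nfatc4 was 0.0314. These marker settings, the coverage-adjusted correlations, the TPM total as a measure and the RNA concentration values without WT 43-3 were chosen after seeing the data. With 1 mouse left out, the ranges were -0.12 to 0.00655 for Ppp3cb, -0.0630 to 0.0676 for Nfatc3, -0.21 to 0.18 for Nfatc4, -0.15 to 0.0588 for Mef2a, -0.0840 to 0.00341 for Mef2c and -0.14 to 0.00981 for Mef2d. The cause was not tested.

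The number of genes of the 10 with an exact p below 0.05 was 1, and 1 to 2 with 1 mouse left out (2 without WT 39-1 and 2 without KO 62-1, where Nfatc2 joined Rcan1). Correlated pairs numbered 5, and 29 on log2(TPM + 1), 24 with library totals, 19 on residuals after genotype, lane and RNA concentration, 7 with coverage removed too, and 4 to 9 with 1 mouse left out. Without mouse KO 53-1 there were 9. The counts on residuals tend to be too high, for the reason given with the pairs. Relations with RNA quality numbered 7, or 13 with the TPM total included. No paired analysis was possible because the mice carry individual IDs that no WT and WWP2Mut/Mut mouse shares.

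Nfatc4 had the fewest counts, 122 to 314 per mouse of 24566994 or more in total. The spread between 9 mice per genotype limits all 10, since the smallest standard error of a log2 fold change among them was 0.0860.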
